A study of Mus musculus with 6 samples.

Results

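The genes described here encode the proteins of the cytosolic ribosome. They were taken from the platform annotation by symbol, as names that begin with Rpl or Rps followed by a digit, together with Rplp0, Rplp1, Rplp2 and Rpsa. Symbols that mark pseudogenes with "-ps" and the Rps6k kinases were left out. The rule found 68 of the 19505 genes with a measured feature on the arrays. Of these, 41 were assigned to the large subunit by symbol, as 33 core proteins, 6 paralogs and 2 copies of another gene. In the same way 26 genes were assigned to the small subunit, as 22 core proteins, 2 paralogs and 2 copies. Whether the products of the paralogs and copies are part of the ribosome was not checked. The remaining gene, Rps19bp1, matches the pattern by its symbol, but encodes a nucleolar protein that binds Rps19 and is not part of the ribosome. RefSeq lists 89 protein-coding mouse genes that match the rule, and 22 of them, among them Rpl10, Rpl13a, Rplp2, Rps2, Rps3 and Rps27a, were not analysed here.

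The cells were B16F10, an established mouse melanoma line. They were kept for 48 h in medium alone (control), with 2.5 µM or with 40 µM of a compound that the labels call di-sq, and 2 arrays were made for each of the 3 groups. All groups were the same cell line in the same base medium, so that the compound and its dose are the labelled difference between them. The description field of 1 sample at 2.5 µM speaks of medium, and those of 3 treated samples name another treatment. Groups here follow titles, source names and treatment fields. The labels do not say whether the arrays of 1 group stand for separate cultures, so p-values measure the spread between these arrays, which may be technical.

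Ribosomal proteins are the structural parts of the ribosome, and a ribosome needs all the core proteins together, so that cells make them in matched amounts. Their messenger RNAs are among the most abundant in growing cells. Most of them begin with a C and a run of pyrimidines, the terminal oligopyrimidine (TOP) motif, through which the kinase mTOR and the RNA-binding protein Larp1 control their translation and stability. Several ribosomal proteins also act outside the ribosome, such as Rpl5 and Rpl11, which bind and inhibit Mdm2 when they are in excess.

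The start regions of a few members are printed because the run of pyrimidines at the start of the messenger RNA is the sequence feature for which this gene family is known. RefSeq gave a promoter window, from 250 bases before to 50 after the annotated start, for 55 of the 68 members, in 66 windows. A C followed by at least 5 pyrimidines, on the strand of the gene and beginning within 20 bases of the annotated start, was present in 56.1% of the members' windows, against 32.5% of all 32851 windows. The 6 sequences below hold 30 bases before and 20 bases after the annotated start on build GRCm38.p6, written 5′ to 3′ on the strand of the gene. The capitals mark the run of pyrimidines, which need not be the first letters of the messenger RNA. Counted from the annotated start, it began at -9 in Rpl6, -2 in Rpl28, -12 in Rpl7a and -5 in Rps9. In Rps23 it began at 4 and in Rps15a at -15. In Rpl6 and Rps15a it ended before the annotated start, and in none of the 6 did it begin there.
Rpl6, chr5:121204471-121204520, plus strand: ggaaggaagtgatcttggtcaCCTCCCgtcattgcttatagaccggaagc
Rpl28, chr7:4792935-4792984, plus strand: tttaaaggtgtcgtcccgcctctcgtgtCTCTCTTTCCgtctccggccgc
Rpl7a, chr2:26910777-26910826, plus strand: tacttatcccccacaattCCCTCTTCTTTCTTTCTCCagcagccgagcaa
Rps9, chr7:3704011-3704060, plus strand: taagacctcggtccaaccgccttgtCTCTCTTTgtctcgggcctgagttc
Rps23, chr13:90923092-90923141, plus strand: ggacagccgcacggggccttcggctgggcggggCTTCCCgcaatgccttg
Rps15a, chr7:118116128-118116177, minus strand: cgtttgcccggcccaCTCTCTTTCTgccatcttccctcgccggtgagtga
Rpl6, Rpl28, Rps9 and Rps23 are members with a large difference between the 2 arrays at 40 µM, and Rpl7a and Rps15a are members with a small one. The runs had 6 to 19 letters. Other letters were counted on both strands over the whole window. CCGGAAG, a binding sequence of ETS factors, was found in 33.3% of the members' windows against 8.86% of all windows. GGGCGG, which Sp1 binds, was found in 54.5% against 35.7%, and AAGATGGC, the core of a YY1 sequence, in 9.09% against 2.75%. The E-box CACGTG, which MYC and MAX bind, was found in 7.58% of the members' windows and in 7.15% of all windows. TATAAA was found in 10.6% against 13.6%, and CCAAT in 30.3% against 37.4%. These are counts of letters and not of bound sites.

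The deposited values are on a log2 scale after RMA, so a level here is relative to the other transcripts on the array. In bulk samples fewer cells of a type and less RNA per cell cannot be told apart. Background was set at 9.94, the mean over arrays of each array's 95th percentile of negative controls, and 78.7% of all genes had a mean below it. Of the ribosomal protein genes 62 had a mean above it, and the 6 below were Rpl39l, Rpl3l, Rpl10l, Rps4l, Rps23rg1 and Rps19bp1. Another 6 members had a mean above 16, which a 16-bit scanner cannot reach on a plain log2 scale. Saturation was not tested, and how the scale came about is not given in the sources used here. The melanocyte markers were present, 9 of 10 above background, with a log2 summed level between 20.73 and 20.92 on the 6 arrays. All 20 measured markers of fibroblasts, keratinocytes, leukocytes and endothelium lay below background, the highest value being 7.14 for Vwf.

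The arrays were not alike in their spiked controls. Replicate 1 at 2.5 µM and replicate 1 at 40 µM had mean poly-A control levels of 5.65 and 5.63. The 2 arrays of control cells had 6.35 and 6.39. Replicate 2 lay above these, with 6.79 at 2.5 µM and 7.42 at 40 µM. The mean of the hybridisation controls was also lower on the 2 replicate 1 arrays of treated cells, with 10.43 and 10.30 against 10.82 to 11.15 elsewhere. The spread of the values over all genes was wider on these 2 arrays, with interquartile ranges of 5.20 and 5.43 log2 units against 4.90 to 4.94 on the other 4. The ribosomal protein genes were high on the same 2 arrays and lower on replicate 2 of each dose, as described next. The part of the spiked controls and of the wider spread in that result was not tested.

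Array by array, the ribosomal protein genes were higher on replicate 1 and lower on replicate 2 at each dose, around control arrays that were close to each other. The difference between the 2 control arrays had a median of -0.0079 over the 68 members. Relative to the control mean, the median of the 41 large subunit genes was 0.59 on replicate 1 and -0.24 on replicate 2 at 2.5 µM, and 0.73 and -0.13 at 40 µM. For the 26 small subunit genes the medians were 0.34 and -0.55 at 2.5 µM, and 0.71 and -0.05 at 40 µM. The median of all genes stayed between -0.04 and 0.01 on these 4 arrays, and that of the 4147 genes above background between -0.01 and 0.08. Among the 22 core small subunit genes, all were above the control mean on replicate 1 at 40 µM, and 21 were below it on replicate 2 at 2.5 µM.

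**Figure D1:**
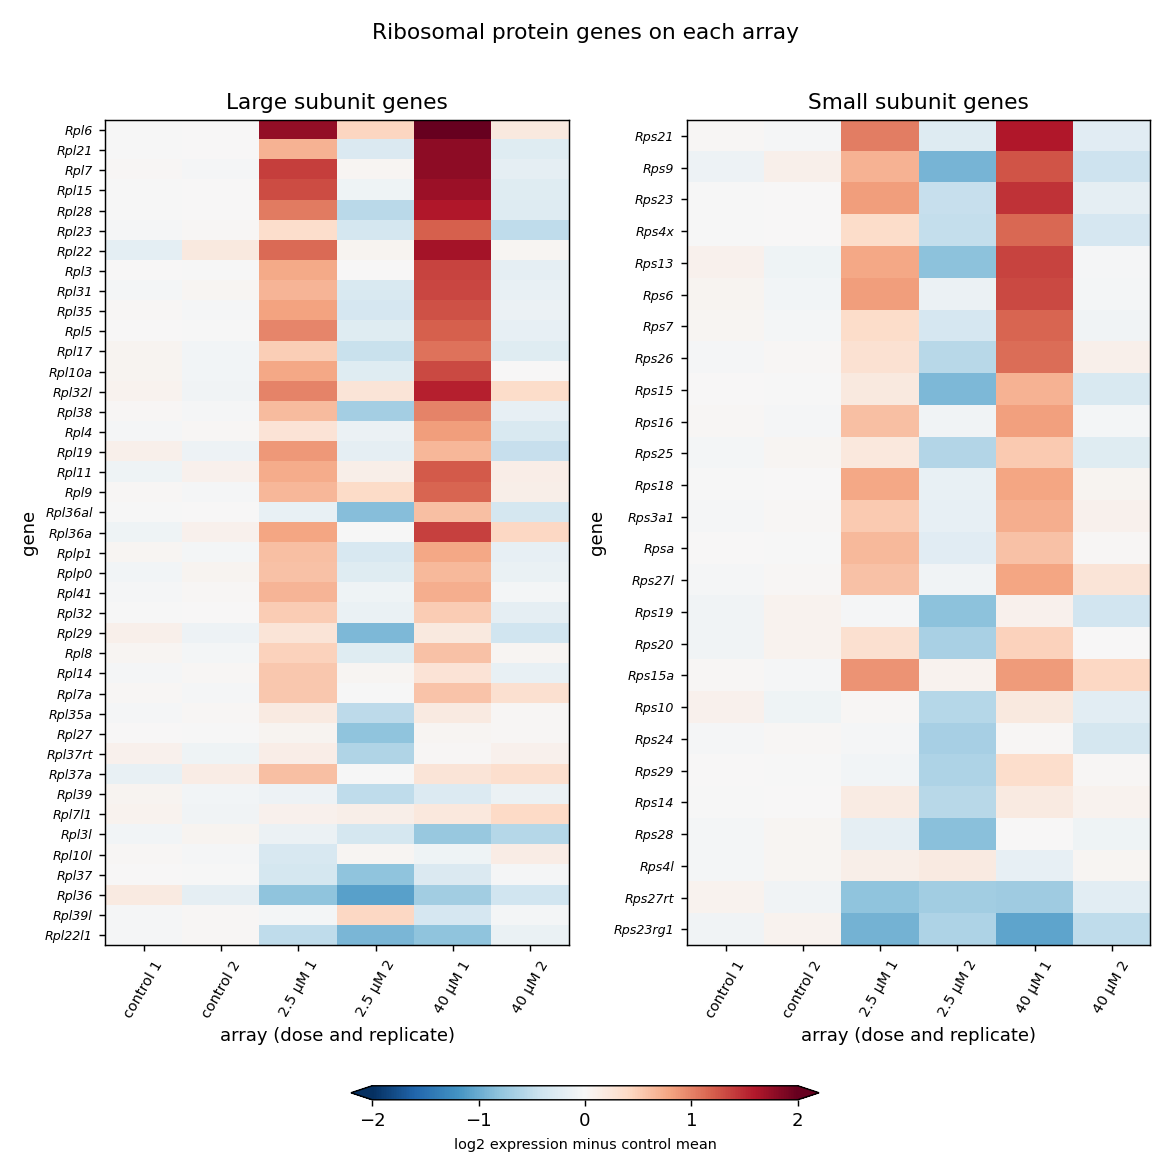
Log2 expression minus the control mean for each large (left) and small (right) subunit gene, 1 row per gene and 1 column per array, sorted by the difference between the 2 arrays at 40 µM. Replicate 1 at 2.5 µM and at 40 µM is red for most genes and replicate 2 is pale or blue, with Rpl6 on replicate 1 at 40 µM (2.94) beyond the end of the colour scale.

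The same split can be counted gene by gene. On replicate 1 at 40 µM, 55 of 68 members lay above both control arrays, against 40.8% of all genes. On replicate 1 at 2.5 µM, 53 members did so, against 43.2% of all genes. Below both controls lay 52 members on replicate 2 at 2.5 µM, against 41.2% of all genes, and 41 members on replicate 2 at 40 µM, against 43.1%. In 39 members replicate 1 lay above and replicate 2 below both controls at 2.5 µM, against 10.5% of all genes. At 40 µM the same was true of 31 members, against 12.8% of all genes. For many members a group mean near or above control is therefore an average of 1 array above the controls and 1 below them. Most of all genes are below background, so the 4147 genes and 62 members above it were also counted. Above both controls on replicate 1 lay 2183 of these genes at 40 µM and 2217 at 2.5 µM, against 54 and 51 members. Below both on replicate 2 lay 1881 and 1690, against 37 and 49 members. The split was present in 825 and 571 genes, against 30 and 38 members.

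**Figure D2:**
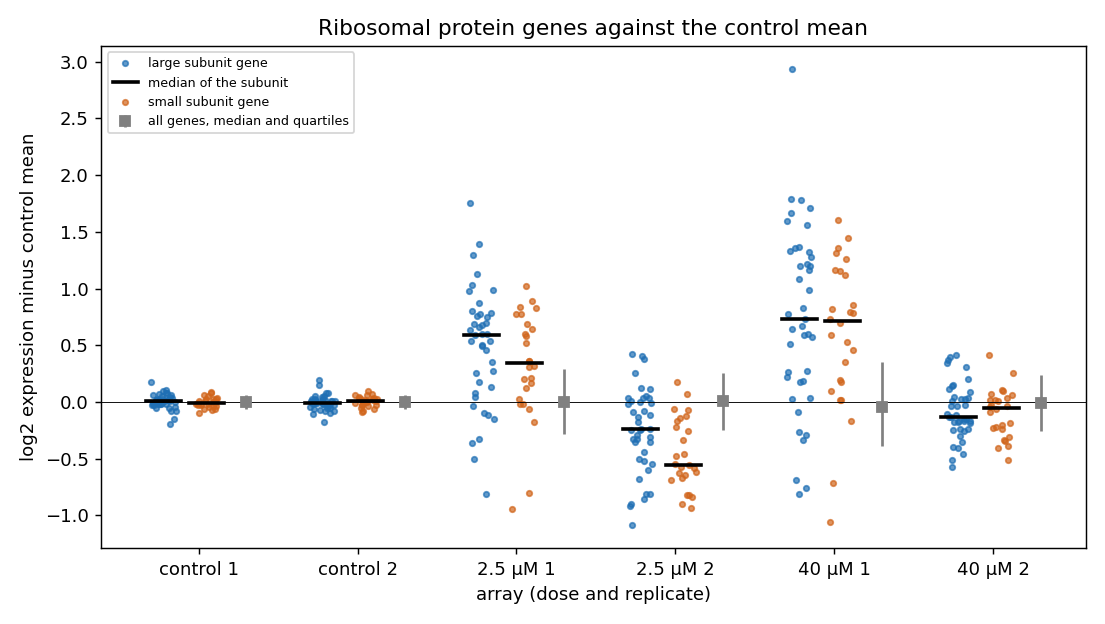
Log2 expression minus the control mean on each of the 6 arrays, with 1 point per gene in blue (large subunit) or orange (small subunit), the median of each subunit as a black bar, and the median and quartiles of all genes as a grey square with bars. The ribosomal medians reach 0.73 and 0.71 on replicate 1 at 40 µM and lie at -0.24 and -0.55 on replicate 2 at 2.5 µM, while the median of all genes stays close to 0.

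The size of the gap between the 2 arrays of a dose differed between members. Over the 41 large subunit genes, replicate 1 minus replicate 2 had a median of 0.95 at 40 µM and ranged from -0.68 to 2.74. Over the 26 small subunit genes the median was 0.61, with a range from -0.54 to 1.83. At 2.5 µM the medians were 0.74 and 0.80. The gap was above 0 in all 55 core genes at 2.5 µM and in 51 of them at 40 µM, where Rpl36, Rpl37, Rpl37a and Rpl39 were the exceptions. Across the 68 members the gap at 40 µM and the gap at 2.5 µM, which share no array, had a Pearson r of 0.77 and a Spearman rho of 0.78. The same values were 0.39 and 0.31 across all genes, and 0.65 and 0.56 across the genes above background. These are descriptions across genes, which are not independent replicates, and the points share the 4 arrays. Among core members with 1 promoter window, the gap at 40 µM had a median of 1.16 in the 23 with a run of pyrimidines near the start (-0.16 to 2.74) and of 0.77 in the 13 without one (-0.27 to 1.49), which overlap over most of their range.

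**Figure D3:**
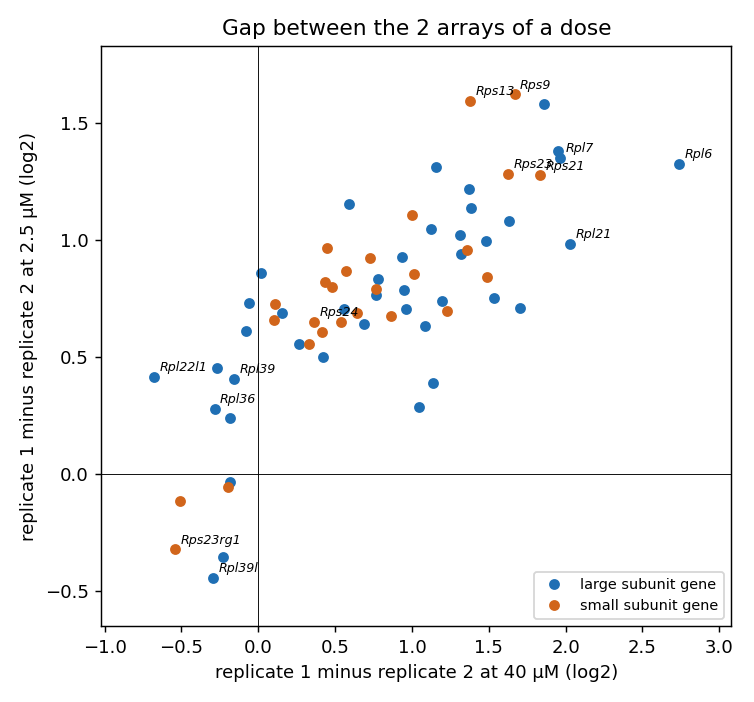
Replicate 1 minus replicate 2 at 40 µM (x axis, log2) against the same at 2.5 µM (y axis, log2), 1 point per ribosomal protein gene, blue for the large and orange for the small subunit. Most genes lie in the upper right part, with Rpl6 at 2.74 and 1.33, and the retrogene Rps23rg1 and the paralog Rpl39l lie below 0 on both axes.

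The comparison of 40 µM with control asked whether the higher dose changed the messenger RNA of the ribosome after 48 h. The mean was higher at 40 µM for 54 of the 68 members. The median difference was 0.31 for the large subunit genes (34 of 41 higher) and 0.35 for the small subunit genes (19 of 26 higher), with a median of -0.012 for all genes and 0.05 for genes above background. In limma's fit on all 6 arrays no member passed an adjusted p of 0.05, the smallest being 0.358, and 0.00% of all genes passed it. At an unadjusted p under 0.05, which 12.0% of all genes met in either direction, 1 member (Rpl36a) was higher, where 5.18% of all genes were, and 3 members (Rpl36, Rpl3l and Rps23rg1) were lower, where 6.86% were. The 2 arrays at 40 µM lay above both controls for 18 members, against 22.2% of all genes, and below both for 8, against 26.3%. Without replicate 1 at 40 µM the medians were -0.13 (large) and -0.05 (small), and without replicate 2 they were 0.73 and 0.71, so the sign of this comparison rests on which array is kept. In the fit without replicate 2, 12 members passed the adjusted threshold (10 higher and 2 lower), against 11.5% of all genes.

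Among large subunit genes, Rplp0, the base of the stalk that binds translation factors, had 14.42 and 14.53 in control cells, 15.07 and 14.23 at 2.5 µM, and 15.12 and 14.34 at 40 µM, the value of replicate 1 first in each group. Rplp1, one of the acidic proteins that Rplp0 carries, had 17.02 and 16.94 in control cells, 17.58 and 16.65 at 2.5 µM, and 17.75 and 16.81 at 40 µM. In both genes replicate 1 of each dose was above and replicate 2 below the controls. Rpl10a, the protein of the L1 stalk near the exit site for transfer RNA, had 14.29 and 14.18 in control cells, 15.01 and 13.99 at 2.5 µM, and 15.56 and 14.25 at 40 µM. Rpl3, which reaches towards the peptidyl transferase centre, had 14.59 and 14.57 in control cells, 15.34 and 14.59 at 2.5 µM, and 15.94 and 14.40 at 40 µM. The limma differences between 40 µM and control were 0.25 (SE 0.34) for Rplp0, 0.30 (SE 0.38) for Rplp1, 0.67 (SE 0.47) for Rpl10a and 0.59 (SE 0.48) for Rpl3, each under 2 SEs from 0. For Rpl10a and Rpl3 replicate 1 was above both controls at each dose, while replicate 2 lay between the controls at 40 µM (Rpl10a) or just above them at 2.5 µM (Rpl3).

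Rpl5 and Rpl11 bind 5S ribosomal RNA and together control Mdm2. Rpl5 had 14.12 and 14.09 in control cells, 15.08 and 13.86 at 2.5 µM, and 15.31 and 13.94 at 40 µM. Rpl11 had 12.33 and 12.49 in control cells, 13.16 and 12.53 at 2.5 µM, and 13.63 and 12.55 at 40 µM. For Rpl11 all 4 treated arrays were above both controls, for Rpl5 the replicate 1 arrays alone were. The 40 µM minus control differences were 0.52 (SE 0.51) for Rpl5 and 0.68 (SE 0.37) for Rpl11.

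The widest gap between 2 arrays of a group was that of Rpl6, a protein on the outer surface of the large subunit. It had 14.11 on both control arrays, 15.86 and 14.54 at 2.5 µM, and 17.05 and 14.31 at 40 µM. All 4 treated arrays were above the controls, by as little as 0.20 on replicate 2 and as much as 2.94 on replicate 1 at 40 µM. The limma difference between 40 µM and control was 1.57 (SE 0.82, adjusted p = 0.464), a 2.97-fold higher mean, with an interval from -0.36 to 3.50. Rpl7 had 14.90 and 14.86 in control cells, 16.27 and 14.92 at 2.5 µM, and 16.67 and 14.71 at 40 µM. Rpl21 had 14.35 and 14.38 in control cells, 15.06 and 14.07 at 2.5 µM, and 16.15 and 14.12 at 40 µM. For Rpl7 and Rpl21, both core large subunit proteins, the replicate 1 arrays alone were clearly above control.

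Rpl7a and Rpl9, also core proteins, lay above control on both arrays at 40 µM. Rpl7a had 15.22 and 15.18 in control cells, 15.74 and 15.19 at 2.5 µM, and 15.78 and 15.51 at 40 µM. The limma difference between 40 µM and control was 0.44 (SE 0.22, adjusted p = 0.45). Rpl9 had 13.31 and 13.28 in control cells, 13.96 and 13.67 at 2.5 µM, and 14.45 and 13.41 at 40 µM, so that all 4 treated arrays were above both controls. The 40 µM minus control difference was 0.64 (SE 0.33, adjusted p = 0.46). Rpl14 had 16.24 and 16.27 in control cells, 16.79 and 16.29 at 2.5 µM, and 16.53 and 16.11 at 40 µM, with a 40 µM minus control difference of 0.06 (SE 0.23). Rpl41, which encodes the shortest ribosomal protein, had 16.17 and 16.20 in control cells, 16.87 and 16.10 at 2.5 µM, and 16.92 and 16.15 at 40 µM, again split by replicate. Rpl35, which sits at the mouth of the peptide exit tunnel, and Rpl38, whose loss in mice disturbs the translation of Hox messenger RNAs, had 40 µM minus control differences of 0.58 (SE 0.50) and 0.41 (SE 0.49). Both were above the controls on replicate 1 and below them on replicate 2 at each dose.

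Rpl36, a core protein of the large subunit, and Rpl37, a zinc-binding one, lay below control where most members had a higher mean at 40 µM. Rpl36 had 10.78 and 10.43 in control cells, 9.79 and 9.51 at 2.5 µM, and 9.91 and 10.20 at 40 µM. All 4 treated arrays were below both controls, with values near background. The limma difference was -0.55 at 40 µM (SE 0.23, unadjusted p = 0.0479, adjusted p = 0.41) and -0.95 at 2.5 µM (SE 0.23, unadjusted p = 0.00421, adjusted p = 0.479). Rpl37 had 15.93 and 15.90 in control cells, 15.56 and 15.11 at 2.5 µM, and 15.62 and 15.89 at 40 µM. Its difference from control was -0.16 (SE 0.20) at 40 µM and -0.58 (SE 0.20, adjusted p = 0.483) at 2.5 µM. Rpl39, part of the exit tunnel wall, was likewise below both controls on all 4 treated arrays, with 13.05 and 12.93 in control cells, 12.89 and 12.49 at 2.5 µM, and 12.72 and 12.88 at 40 µM. Its differences from control were -0.19 (SE 0.20) at 40 µM and -0.30 (SE 0.20) at 2.5 µM.

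The large subunit has several paralogs whose products can replace a core protein, and some of them lay on the other side of control from their partner. Rpl22, an RNA-binding protein that in mouse lowers the expression of its paralog Rpl22l1, had 13.31 and 13.71 in control cells, 14.64 and 13.56 at 2.5 µM, and 15.18 and 13.55 at 40 µM. Rpl22l1 had 12.18 and 12.24 in control cells, 11.71 and 11.29 at 2.5 µM, and 11.40 and 12.08 at 40 µM, below both controls on all 4 treated arrays. Rpl22l1 was lowest on replicate 2 at 2.5 µM, where Rpl22 lay between its controls, and Rpl22 was highest on replicate 1 at 40 µM. The 40 µM minus control differences were 0.86 (SE 0.55) for Rpl22 and -0.47 (SE 0.27, adjusted p = 0.502) for Rpl22l1, and the difference between the 2 genes was not tested. Rpl36a, encoded on the X chromosome, had 10.04 and 10.20 in control cells, 10.90 and 10.12 at 2.5 µM, and 11.49 and 10.54 at 40 µM. Both arrays at 40 µM lay above both controls, and the limma difference was 0.89 (SE 0.37, unadjusted p = 0.0481, adjusted p = 0.41), a 1.86-fold higher mean. Its autosomal paralog Rpl36al had 11.34 and 11.35 in control cells, 11.20 and 10.49 at 2.5 µM, and 11.95 and 10.99 at 40 µM, with a 40 µM minus control difference of 0.12 (SE 0.36).

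Rpl7l1, a relative of Rpl7 that acts in the assembly of the large subunit, lacked the split. It had 12.93 and 12.79 in control cells, 12.94 and 12.98 at 2.5 µM, and 13.07 and 13.26 at 40 µM, all 4 treated arrays above both controls, with a 40 µM minus control difference of 0.31 (SE 0.17). Rpl3l of striated muscle and Rpl10l and Rpl39l of the testis lay below background on every array, between 4.31 and 6.69. Within that range Rpl3l had 5.07 and 5.18 in control cells, 5.01 and 4.77 at 2.5 µM, and 4.37 and 4.55 at 40 µM, a 40 µM minus control difference of -0.67 (SE 0.22, unadjusted p = 0.0174, adjusted p = 0.358) between values that are all below background. Rpl32l, a copy of Rpl32, had 9.82 and 9.67 in control cells, 10.74 and 9.998 at 2.5 µM, and 11.31 and 10.11 at 40 µM, a 40 µM minus control difference of 0.96 (SE 0.42, adjusted p = 0.417). A copy or close paralog may share probes with its partner, and probe sequences were not used here, so the values of Rpl32l, Rpl37rt, Rpl36al, Rps27rt and Rps27l are uncertain in this respect.

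**Figure D4:**
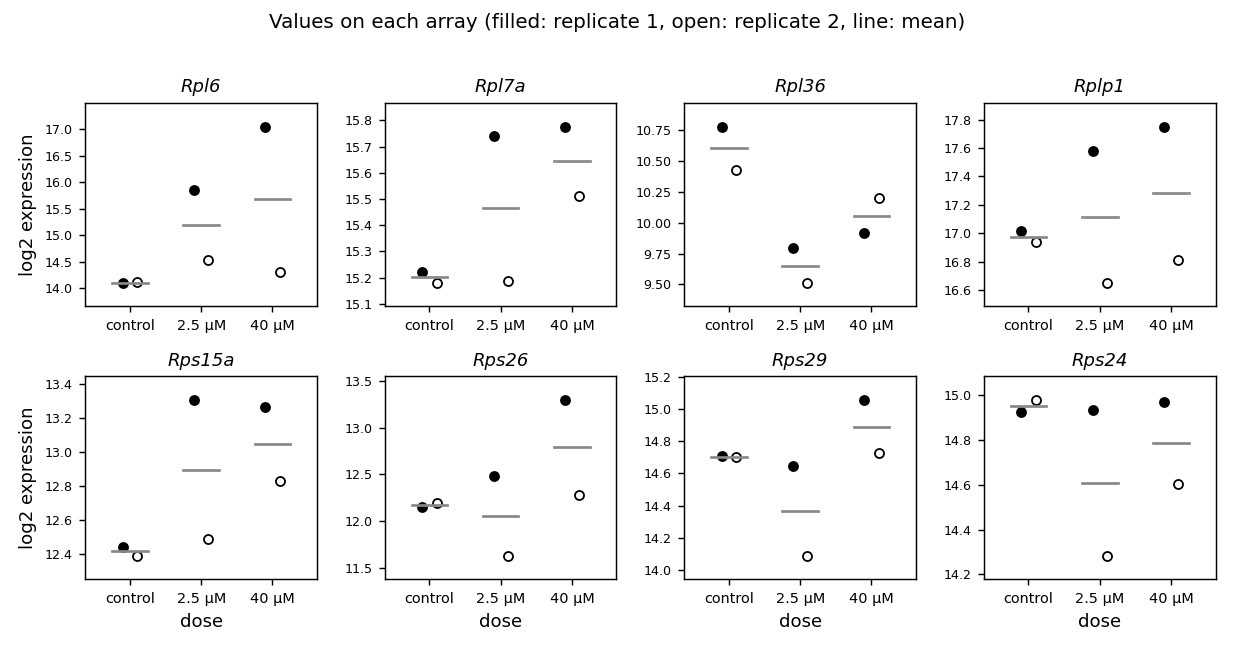
Log2 expression (y axis, each panel with its own range) of 8 ribosomal protein genes in control cells and at 2.5 and 40 µM (x axis), with filled points for replicate 1, open points for replicate 2 and a line for the group mean. Rpl6, Rplp1 and Rps26 are highest on replicate 1 at 40 µM (17.05, 17.75 and 13.30), and Rpl36 is below both controls on all 4 treated arrays.

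Among small subunit genes, Rpsa, which lies at the back of the small subunit and is also known as the laminin receptor precursor, had 14.69 and 14.67 in control cells, 15.32 and 14.46 at 2.5 µM, and 15.27 and 14.70 at 40 µM. Rps6, the substrate of the S6 kinases that lie below mTOR, had 15.14 and 15.03 in control cells, 15.92 and 14.96 at 2.5 µM, and 16.40 and 15.04 at 40 µM. Both genes were above the controls on the replicate 1 arrays and closer to them on the replicate 2 arrays. The 40 µM minus control differences were 0.30 (SE 0.31) for Rpsa and 0.64 (SE 0.47) for Rps6. Rps4x, encoded on the X chromosome, had 13.05 on both control arrays, 13.41 and 12.57 at 2.5 µM, and 14.21 and 12.72 at 40 µM.

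The small subunit genes with the widest gap at 40 µM were Rps21, Rps9 and Rps23. Rps23 and Rps9, whose yeast counterparts set the accuracy of decoding, split in the same direction at each dose. Rps23 had 16.14 and 16.16 in control cells, 16.98 and 15.70 at 2.5 µM, and 17.60 and 15.97 at 40 µM. Rps9 had 11.63 and 11.82 in control cells, 12.42 and 10.79 at 2.5 µM, and 12.99 and 11.32 at 40 µM. Rps21 had 11.43 and 11.37 in control cells, 12.42 and 11.15 at 2.5 µM, and 13.01 and 11.18 at 40 µM. In all 3 genes replicate 1 was above and replicate 2 below both controls at each dose, and the 40 µM minus control differences of 0.43 to 0.69 had SEs of 0.57 to 0.64.

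Several small subunit proteins are encoded by genes that are mutated in Diamond-Blackfan anaemia, a failure of red cell production, and Rps14 by the gene lost in the 5q- syndrome. Rps19 had 12.85 and 12.98 in control cells, 12.90 and 12.10 at 2.5 µM, and 13.01 and 12.53 at 40 µM. Rps24 had 14.93 and 14.98 in control cells, 14.93 and 14.28 at 2.5 µM, and 14.97 and 14.60 at 40 µM. For both genes the replicate 1 arrays were close to control and the replicate 2 arrays below it, and the 40 µM minus control differences were -0.15 (SE 0.30) and -0.17 (SE 0.25). Rps26 had 12.15 and 12.20 in control cells, 12.48 and 11.63 at 2.5 µM, and 13.30 and 12.28 at 40 µM. Both arrays at 40 µM were above both controls, with a limma difference of 0.62 (SE 0.39, adjusted p = 0.531). Rps14 had 13.53 and 13.55 in control cells, 13.71 and 12.98 at 2.5 µM, and 13.72 and 13.61 at 40 µM, a 40 µM minus control difference of 0.12 (SE 0.25).

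Rps15a lay above both controls on all 4 treated arrays, and Rps27l on 3 of them. Rps15a had 12.44 and 12.39 in control cells, 13.31 and 12.49 at 2.5 µM, and 13.27 and 12.83 at 40 µM, with a 40 µM minus control difference of 0.63 (SE 0.30, adjusted p = 0.439). Rps27l, a paralog of Rps27 that p53 induces, had 11.19 and 11.23 in control cells, 11.79 and 11.15 at 2.5 µM, and 12.01 and 11.47 at 40 µM, with a difference of 0.53 (SE 0.28, adjusted p = 0.472). The retrogene Rps27rt lay below both controls on all 4 treated arrays, with 10.99 and 10.87 in control cells, 10.13 and 10.24 at 2.5 µM, and 10.21 and 10.73 at 40 µM. The retrogene Rps23rg1 was below background throughout, with 6.63 and 6.77 in control cells, 5.75 and 6.08 at 2.5 µM, and 5.64 and 6.18 at 40 µM. Rps19bp1, the nucleolar protein taken in by its symbol, had 9.76 and 9.80 in control cells, 9.84 and 9.19 at 2.5 µM, and 10.15 and 9.71 at 40 µM, and so carried the same split close to background.

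The other core members were intermediate. In the large subunit (Rpl4, Rpl8, Rpl15, Rpl17, Rpl19, Rpl23, Rpl27, Rpl28, Rpl29, Rpl31, Rpl32, Rpl35a and Rpl37a) the 40 µM minus control differences ran from -0.11 (SE 0.38) for Rpl29 to 0.73 (SE 0.65) for Rpl15. In the small subunit (Rps3a1, Rps7, Rps10, Rps13, Rps15, Rps16, Rps18, Rps20 and Rps25) they ran from -0.01 (SE 0.26) for Rps10 to 0.67 (SE 0.59) for Rps13. Rps13 had 11.49 and 11.30 in control cells, 12.17 and 10.58 at 2.5 µM, and 12.75 and 11.37 at 40 µM, a wide split whose replicate 2 array at 40 µM lay between the controls. The copy Rpl37rt and the paralog Rps4l, the second below background on every array, differed from control at 40 µM by 0.05 (SE 0.26) and -0.07 (SE 0.21).

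At the lower dose the 2.5 µM minus control median difference was 0.19 for large subunit genes (29 of 41 higher) and -0.09 for small subunit genes (11 of 26 higher), with 0.01 for all genes. No member passed an adjusted p of 0.05 in limma's fit on all 6 arrays, the smallest being 0.479, and 0.00% of all genes did. At an unadjusted p under 0.05, which 9.62% of all genes met in either direction, no member was higher, where 4.24% of all genes were, and 5 were lower, where 5.38% were. Leaving out replicate 1 at 2.5 µM gave medians of -0.24 (large) and -0.55 (small), and leaving out replicate 2 gave 0.59 and 0.34, so here too the sign rests on the array kept. The 5 lower members were Rpl36, Rpl37, Rpl22l1, Rps27rt and Rps23rg1. The limma differences were -0.71 (SE 0.27) for Rpl22l1, -0.75 (SE 0.23) for Rps27rt and -0.78 (SE 0.27) for Rps23rg1, with adjusted p from 0.479 to 0.506. The 2 arrays lay above both controls for 10 members, against 27.1% of all genes, and below both for 10, against 25.9%. Rps28, which lies near the exit channel of messenger RNA, had the smallest unadjusted p of the core small subunit genes, 0.0755, with 12.56 and 11.90 at 2.5 µM against 12.70 and 12.78 in control cells.

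The comparison of 40 µM with 2.5 µM can be made separately between the 2 replicate 1 arrays and between the 2 replicate 2 arrays, and in most cases the ribosomal protein genes were higher at 40 µM. The mean was higher at 40 µM for 61 of 68 members, with a median difference of 0.21 for large subunit genes (36 of 41) and 0.30 for small subunit genes (24 of 26, all 22 core genes among them), against -0.00325 for all genes. Leaving out 1 array of an unlike pair turned this direction: the medians were -0.11 (large) and -0.10 (small) without replicate 2 at 2.5 µM, with 16 of 68 members higher, and -0.29 and -0.03 without replicate 1 at 40 µM, with 24 higher. Between the replicate 1 arrays the median difference was 0.23 for large and 0.21 for small subunit genes, and between the replicate 2 arrays it was 0.16 and 0.33. In 45 members (22 large, 22 small and Rps19bp1) both differences were above 0, against 24.6% of all genes, and in 5 (Rpl14, Rpl19, Rpl3l, Rpl39l and Rps4l) both were below 0, against 26.2%. On each pair of arrays taken alone, 54 members were higher. Across the 68 members the 2 differences had a Pearson r of -0.07 and a Spearman rho of -0.11, with 0.04 and 0.03 across all genes. The size of a member's difference on 1 pair thus did not follow its size on the other. In limma's fit on all 6 arrays, without that split, no member passed an adjusted p of 0.05, the smallest being 0.854, and 0.00% of all genes did. No member had an unadjusted p under 0.05, against 5.61% of all genes in either direction, where 2.34% of all genes were higher and 3.28% lower at that threshold. The groups did not overlap for 5 members higher at 40 µM and 3 lower, against 12.4% and 16.3% of all genes.

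**Figure D5:**
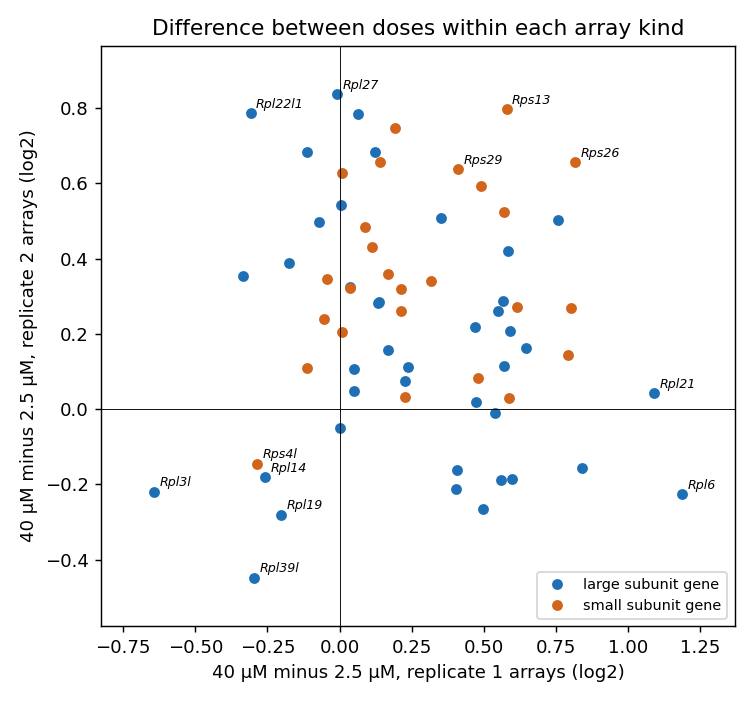
Difference between 40 µM and 2.5 µM (log2) on the replicate 1 arrays (x axis) and on the replicate 2 arrays (y axis), 1 point per ribosomal protein gene, blue for the large and orange for the small subunit. Of the 26 small subunit genes 22 lie above 0 on both axes, and Rpl6 is 1.19 higher on the replicate 1 arrays and -0.23 on the replicate 2 arrays.

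Rps26 had the largest difference between the dose means among the core genes. It was 0.82 higher at 40 µM on the replicate 1 arrays and 0.66 on the replicate 2 arrays, and its limma difference was 0.74 (SE 0.39, adjusted p = 0.854) over all arrays. Rps29, a zinc-binding protein of the small subunit head, had 14.71 and 14.70 in control cells, 14.64 and 14.09 at 2.5 µM, and 15.06 and 14.72 at 40 µM. Both arrays at 40 µM were above both controls and both arrays at 2.5 µM below them, and the doses differed by 0.52 (SE 0.23, unadjusted p = 0.0558, adjusted p = 0.854). Rps13 was higher at 40 µM by 0.58 on the replicate 1 and 0.80 on the replicate 2 arrays, and Rps28 by 0.19 and 0.75. In the large subunit, Rpl36al was higher by 0.76 and 0.50 and Rpl36a by 0.59 and 0.42, while Rpl6 was higher by 1.19 on the replicate 1 arrays and lower on the replicate 2 arrays, by -0.23.

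With the 2 arrays low in spiked controls entered in limma as a block, 22 members had an unadjusted p under 0.05 and were higher at 40 µM than at 2.5 µM (10 large, 11 small and Rps19bp1), against 6.87% of all genes, and none was lower, against 6.33%. No member passed the adjusted threshold, the smallest adjusted p being 0.224, for Rps26 (0.74, SE 0.13). In the same fit 30 members were lower at 2.5 µM than in control cells (13 large, 16 small and Rps19bp1) and none higher, against 7.51% and 6.80% of all genes, with a smallest adjusted p of 0.226, and the difference was above 0 for 12 of 68 members. Between 40 µM and control 3 were higher and 9 lower, against 7.14% and 7.68%, and the medians were -0.11 for large and -0.09 for small subunit genes, the opposite sign to the fit without the block. Both control arrays lie on 1 side of this block, so its comparisons with control rest on the replicate 2 arrays and on an equal shift at both doses. In poly-A control level the replicate 2 arrays were above the controls, with 6.79 at 2.5 µM and 7.42 at 40 µM against 6.35 and 6.39. With the 2 low arrays left out altogether, 31 members passed the adjusted threshold between 40 µM and 2.5 µM (all higher), against 15.2% of all genes. Against control 42 did so at 2.5 µM (2 higher, 40 lower), against 20.5%, and 19 at 40 µM (4 higher, 15 lower), against 19.2%. In that fit each dose is 1 array, and the spread comes from the 2 control arrays alone.

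Of the other genes of this pathway, Fau, which encodes Rps30 fused to a ubiquitin-like protein, had 11.42 and 11.37 in control cells, 12.07 and 10.77 at 2.5 µM, and 12.69 and 10.96 at 40 µM. This is the split of the core genes, in a ribosomal protein gene that the symbol pattern does not take in. Elongation factors and other genes with TOP messenger RNAs, 19 measured of 22 listed, had a median of 0.53 on replicate 1 and -0.04 on replicate 2 at 2.5 µM, and of 1.14 and -0.05 at 40 µM. None of the 19 had an unadjusted p under 0.05 between 40 µM and control in limma's fit, against 12.0% of all genes. Tpt1, a growth-related protein with a well-known TOP messenger RNA, had 13.66 and 13.64 in control cells, 14.81 and 13.70 at 2.5 µM, and 15.14 and 13.56 at 40 µM. Eef2, the elongation factor that moves the ribosome along, had 18.56 and 18.60 in control cells, 18.63 and 18.76 at 2.5 µM, and 18.30 and 18.63 at 40 µM, without that split.

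Chaperones of ribosomal proteins and late assembly factors, 24 measured of 27 listed, had a median 40 µM minus control difference of 0.23, with 20 higher and 4 of them (Riok1, Sbds, Rsl24d1 and Sqstm1) at an unadjusted p under 0.05, where 5.18% of all genes were higher. The list's median was 0.49 on replicate 1 and 0.02 on replicate 2 at 40 µM. Sqstm1 encodes an autophagy receptor and is neither a chaperone of ribosomal proteins nor an assembly factor, but it was on the list and these counts include it. Of the 24 genes 10 had a mean below background, Riok1 among them. Rsl24d1, the assembly-stage relative of Rpl24, had 8.49 and 8.42 in control cells, 9.41 and 9.25 at 2.5 µM, and 9.08 and 9.15 at 40 µM, below background but with no split between replicates. Sbds, which releases the assembly factor Eif6 from the large subunit, had 11.40 and 11.67 in control cells, 12.19 and 12.36 at 2.5 µM, and 12.14 and 12.00 at 40 µM. For both genes all 4 treated arrays were above both controls, with adjusted p of 0.349 and 0.374 at 40 µM. Regulators in the TOR and MYC pathways, 18 measured of 20 listed, had a median 40 µM minus control difference of -0.15. Deptor, an inhibitor of mTOR, was the 1 of these 18 with an unadjusted p under 0.05 in limma's fit. Of all genes 12.0% met that threshold in either direction, and 6.86% were lower. Deptor had 12.38 and 12.30 in control cells, 12.80 and 12.76 at 2.5 µM, and 11.93 and 11.54 at 40 µM. It was lower than control at 40 µM (-0.60, SE 0.20, adjusted p = 0.36) and higher at 2.5 µM (0.45, SE 0.20, adjusted p = 0.526). Larp1 had 13.98 and 14.03 at 40 µM against 14.05 and 14.15 in control cells, a difference of -0.09 (SE 0.16).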

How the data were processed

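Per the labels' protocols, B16F10 RNA was amplified as biotinylated cRNA and read on Affymetrix mouse arrays in 1 colour. The authors deposited log2 values made with RMA in Affymetrix Expression Console and Transcriptome Analysis Console, per the submitters' processing notes. Software versions, filters and build: not given in the sources used here. RMA includes a quantile normalization, which removes differences in total signal, but the deposited values of the genes kept still differed in spread between arrays.

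Of 22206 transcript clusters 19572 had 1 gene symbol and 2634 without a symbol were left out. For the 55 genes with several clusters the one with the highest mean was used. No ribosomal protein gene had several. No filter on level was applied, which left 19505 genes, and no column of another series was present.

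Groups came from titles and treatment labels. All 6 arrays were fitted with limma 3.58.1 in R 4.3.3 (group means, no covariate, a variance prior that follows the level, residual df 3, prior df 4.11). Tests were two-sided, and p-values were adjusted by Benjamini-Hochberg over the 19505 genes at 0.05. The script was tested on simulated data. Arrays give no read depth, and their number limits the precision. Replicate numbers were not taken as pairs in the main fit. Over all genes, deviations of same-numbered arrays correlated at -0.01 (40 µM, control), -0.0045 (2.5 µM, control) and 0.39 (40 µM, 2.5 µM). Over the members these correlations were -0.06, -0.0058 and 0.77. The main fit between the doses therefore leaves out a difference between replicates that both doses share, and fits with a block are given as alternatives.

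The members and gene lists were chosen with earlier results of these data known. Genes named with their values were those with a known special role, the 3 per subunit with the smallest p in each direction and comparison, the 3 with the highest and lowest means, the 3 with the widest gap at 40 µM, and the member that is no ribosomal protein, 47 in all. Rpl28, Rpl19, Rps13, Rpl15 and other core genes named beside them, and the genes named from the other lists, were chosen after their values were seen. Alternatives were another summary of features, a filter on level, another normalization or centring, the replicate number or the array split as a block, array weights, a single variance prior, only the compared groups, and each array left out.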

Additional observations from a re-analysis of the deposited data

Results flagged for a closer look

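The arrays of Rps29 lay on opposite sides of control at the 2 doses, in part by small margins. Both arrays at 40 µM (15.06 and 14.72) were above both control arrays (14.71 and 14.70). Both arrays at 2.5 µM (14.64 and 14.09) were below them. Of all genes, 22.2% were above both controls on both 40 µM arrays, and 25.9% below both on both 2.5 µM arrays. The share of genes with both patterns is not given here. The 40 µM minus control difference of Rps29 was 0.19 (SE 0.23) in the main fit. It turned to -0.036 (SE 0.13) once the arrays low in spiked controls formed a block. The difference between the doses was 0.52 on the log2 scale (SE 0.23), with an unadjusted p of 0.0558 and an adjusted p of 0.854 in limma's fit.

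Rpl31-ps12, a pseudogene that the choice of members left out, had a signal above background on every array. It had 14.51 and 13.23 at 40 µM against 12.87 and 12.89 in control cells, a difference of 0.99 (SE 0.45, adjusted p = 0.431 in limma's fit). At 2.5 µM it had 13.81 and 12.86, and so showed the same order of replicates as most ribosomal protein genes. Whether its probes also read Rpl31 was not tested.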

How the results depend on the processing

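Leaving out each array in turn, the number of all genes that passed the adjusted threshold ranged from 0 to 2235 for 40 µM against control and was 0 for both other comparisons. The number of members at an unadjusted p under 0.05 ranged from 0 to 35 for 40 µM against control, from 0 to 11 for 2.5 µM against control and from 0 to 23 for 40 µM against 2.5 µM. The 2235 and 35 came without replicate 2 at 40 µM, where 30.7% of all genes had an unadjusted p under 0.05 and 12 members passed the adjusted threshold. The medians of large subunit genes ranged from -0.13 to 0.73, from -0.24 to 0.59 and from -0.29 to 0.63 in these comparisons, and those of small subunit genes from -0.05 to 0.71, from -0.55 to 0.34 and from -0.10 to 0.70. Without both arrays low in spiked controls, 3749, 3991 and 2965 genes passed the adjusted threshold and 35, 44 and 48 members an unadjusted one, against 34.6%, 35.8% and 32.3% of all genes. Of the members 19, 42 and 31 passed the adjusted one. Each dose is then 1 array, assumed to vary like the 2 control arrays. With these arrays as a block the member counts were 12, 30 and 22 (14.8%, 14.3% and 13.2% of all genes), and 1 gene passed the adjusted threshold between 40 µM and 2.5 µM. With the replicate number as a block, they were 11, 5 and 3 (14.8%, 10.7% and 6.22% of all genes). Array weights gave 7 members for 40 µM and 10 for 2.5 µM against control (11.4% and 17.9% of all genes). For 40 µM against control the count was 2 with the filter on level and 2 with a single variance prior (12.0% and 12.1% of all genes tested). It was 8 for 2.5 µM against control with only those groups (18.7%), and 1 (5.89%) between the doses after a second quantile normalization. The count without alternatives was 4, 5 and 0. Named genes whose 40 µM minus control difference turned its sign were, with the array split as a block, Rpl14 -0.17, Rpl35 -0.047, Rpl36al -0.29, Rpl38 -0.21, Rpl41 -0.037, Rpl5 -0.13, Rpl7 -0.0198, Rplp0 -0.15, Rplp1 -0.16, Rps14 -0.087, Rps19bp1 -0.12, Rps21 -0.089, Rps23 -0.10, Rps29 -0.036, Rps4x -0.17, Rps9 -0.40, Rpsa -0.056; without both low arrays, Rpl14 -0.15, Rpl21 -0.25, Rpl3 -0.18, Rpl35 -0.11, Rpl36al -0.36, Rpl38 -0.17, Rpl41 -0.038, Rpl5 -0.17, Rpl7 -0.17, Rplp0 -0.13, Rplp1 -0.16, Rps19bp1 -0.064, Rps21 -0.23, Rps23 -0.18, Rps4l 0.032, Rps4x -0.33, Rps6 -0.0398, Rps7 -0.064, Rps9 -0.41; and after a second quantile normalization, Rpl10l -0.017, Rps19bp1 -0.0029, Rps4l 0.018. Leaving out 1 array turned the sign over these ranges: Rpl10l -0.087 to 0.15, Rpl14 -0.15 to 0.27, Rpl21 -0.25 to 1.78, Rpl3 -0.18 to 1.36, Rpl35 -0.11 to 1.28, Rpl36al -0.36 to 0.60, Rpl38 -0.17 to 0.99, Rpl41 -0.038 to 0.73, Rpl5 -0.17 to 1.20, Rpl7 -0.17 to 1.79, Rplp0 -0.13 to 0.64, Rplp1 -0.16 to 0.77, Rps19 -0.39 to 0.093, Rps19bp1 -0.064 to 0.37, Rps21 -0.23 to 1.61, Rps23 -0.18 to 1.44, Rps24 -0.35 to 0.017, Rps28 -0.089 to 0.015, Rps4l -0.17 to 0.032, Rps4x -0.33 to 1.15, Rps6 -0.0398 to 1.32, Rps7 -0.064 to 1.16, Rps9 -0.41 to 1.26. The cause of these changes was not tested. The filter on level left out 3 named genes, and no other named gene changed its sign.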
